A study of Mus musculus with 27 samples.

Results

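The genes described here are Id1, Id2, Id3 and Id4, which encode inhibitor of DNA binding proteins, together with Smad6, Smad7, Bmp4 and Msx2, which are targets or parts of the bone morphogenetic protein (BMP) pathway. They were chosen by name and make up 8 of the 55367 genes in the count table, which covers 27 libraries in 9 groups of 3. Each library was made from polyadenylated RNA of a pool of 15 to 20 wildtype mouse embryos that had been cultured to the morula stage, E2.75. The mouse strain is not stated in the labels. The first 4 groups form the inhibitor family, in which embryos received Vehicle, SAHA at 500 nM, A485 at 10 uM or TSA at 50 nM from embryonic day 2.5. SAHA and TSA inhibit zinc-dependent histone deacetylases, and A485 inhibits the acetyltransferase domain of p300 and CBP. The other 5 groups form the siRNA family, in which embryos were injected at embryonic day 0.5 with small interfering RNA named siControl, siP300, siKat6a, siKat6b or siComb. The labels do not say what siComb contained. The 3 pools per group are described as biological replicates by the submitters, and nothing says whether they came from separate matings or days, so the p-values below measure the spread between these pools, which may be technical.

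BMP ligands such as the product of Bmp4 bind type I and type II serine/threonine kinase receptors, which phosphorylate SMAD1, SMAD5 and SMAD9. These proteins enter the nucleus with SMAD4 and raise transcription of direct targets, of which Id1, Id2 and Id3 are the most widely used readouts. Id proteins have a helix-loop-helix domain but no basic DNA-binding region, and they hold E proteins such as TCF3 and TCF12 away from DNA. Smad6 and Smad7 encode inhibitory SMADs that close a feedback loop on the pathway, and Msx2 encodes a homeodomain repressor that BMP signals induce in many tissues. In the mouse preimplantation embryo, Id2 is known as an early gene of the outer cells that form the trophectoderm.

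The gene models are those of GENCODE vM21 on GRCm38, the build called mm10. Id1 (ENSMUSG00000042745) lies on chromosome 2 at 152736251 to 152737410 on the plus strand. Id2 (ENSMUSG00000020644) lies on chromosome 12 at 25093799 to 25097140 on the minus strand. Id3 (ENSMUSG00000007872) lies on chromosome 4 at 136143497 to 136145755 on the plus strand, and Id4 (ENSMUSG00000021379) on chromosome 13 at 48261228 to 48266026 on the plus strand. Smad6 (ENSMUSG00000036867) lies on chromosome 9, Bmp4 (ENSMUSG00000021835) on chromosome 14 and Msx2 (ENSMUSG00000021469) on chromosome 13. Id4 overlaps A330033J07Rik and Gm49291, and Bmp4 overlaps Gm15217 and Gm15222, all on the opposite strand. The strand setting of the counting is not given in the sources used here. Counts of Id4 and Bmp4 may therefore have gained or lost reads where these partners overlap them.

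The 250 bases before the RefSeq start (GRCm38.p6) were searched for 6 of the 8 genes on both strands. The 2 stretches shown belong to Id2, the most abundant member, and Id4, the member that was at 0 in Vehicle. They were chosen because they lie outside annotated exons and because they hold GGCGCC, the GC-rich letters bound by BMP-activated SMADs. Capitals mark GGCGCC and, in Id4, ATTGG, which is CCAAT read on the other strand.
Id2, chr12:25096254-25096342, minus strand, bases -250 to -162: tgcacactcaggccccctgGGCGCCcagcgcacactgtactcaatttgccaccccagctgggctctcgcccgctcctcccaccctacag
Id4, chr13:48260866-48261115, plus strand, bases -250 to -1: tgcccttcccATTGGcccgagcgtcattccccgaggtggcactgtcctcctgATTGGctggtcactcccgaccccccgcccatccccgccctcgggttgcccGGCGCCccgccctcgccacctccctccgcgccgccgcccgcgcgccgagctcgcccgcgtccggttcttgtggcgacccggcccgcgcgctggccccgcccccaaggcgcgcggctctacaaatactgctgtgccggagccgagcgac
The Id2 stretch lies in an intron of a longer GENCODE transcript of Id2. GGCGCC occurred at bases -231 to -226 of Id2 and -148 to -143 of Id4, and in 9.59% of 32851 promoter windows of the same length (3149 windows). The windows of Id3, Smad6, Bmp4 and Msx2 held no match to it. All 6 windows searched were 61.6 to 75.6% G or C (62.8% for Id2 and 75.6% for Id4). The median over all promoter windows was 52.4%, and the 9.59% was not matched for this. The SMAD box, CAGAC, was found at 2 places in the Id3 window, against 42.2% of all windows with at least one. The E-box bound by E proteins, CANNTG, was found in the windows of Id2, Bmp4 and Msx2 and in 66.2% of all windows. The letters CCAAT were found in those of Id2 (outside the stretch shown), Id4 and Msx2 and in 33.8% of all windows. These matches describe letters and say nothing of binding.

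Library totals ran from 7557591 to 11988857 counts, and 3 counts corresponded to 0.25 to 0.397 CPM (counts scaled to the library total), which is the smallest level a library could show with confidence, for counting error alone. Of nonzero counts, 83.3 to 85.9% per library were even, so both reads of a pair may have been counted. Floors take each count as a separate event. They would then be too low, and the fold bounds drawn from them too high. Of the 8 markers fixed for the morula, Pou5f1, Nanog, Tead4, Cdh1, Tfap2c, Klf5 and Cdx2 were present in both control groups, and Sox2 was at 0 in every library. The siRNA labels were checked on their targets. Kat6a stood at 10.6 to 12.9 CPM in siKat6a against 15.3 to 17.6 CPM in siControl, and Kat6b at 66.1 to 82.5 CPM in siKat6b against 97.5 to 108 CPM. Ep300, which encodes p300, stood at 19.7, 12.9 and 35.9 CPM in the libraries labelled siP300 1, 2 and 3, against 22.05, 22.8 and 26.96 CPM in siControl. The library labelled siP300 3 thus held more Ep300 than any siControl library, which goes against its label. Fold changes of the tested members in siP300 against siControl are also given without it. The summed Id levels, the gene lists and the marker sums of siP300 are given with it only. The siComb libraries held 28.5, 16.3 and 33.4 CPM of Ep300, so siComb 1 and 3 also lay above every siControl library. Kat6a (10.5 to 13.96 CPM) and Kat6b (34.6 to 88.3 CPM) lay below every siControl library in siComb. MERVL, a retroelement of the 2-cell stage that was counted in a row of its own, stood at 2181 to 4569 CPM with SAHA and 8393 to 9742 CPM with TSA, against 5.55 to 16.2 CPM with A485 and 12.5, 14.3 and 245 CPM in Vehicle. It stood at 21.2 to 32.8 CPM in siControl, 20.4 to 44.3 in siKat6a, 35.0 to 946 in siKat6b, 151 to 915 in siP300 and 61.8 to 990.2 in siComb. The groups SAHA, TSA, siKat6b, siP300 and siComb thus lay above their control in every library, and the part of MERVL in the results was not tested.

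A gene is said to have risen or fallen where its p from the quasi-likelihood test of edgeR, adjusted by Benjamini-Hochberg over all genes of its family, was under 0.05 (18297 genes for the inhibitors, 19180 for the siRNAs). Levels are CPM on library totals, as mean ± SD over 3 libraries, and log2 fold changes are edgeR's with TMM scaling, ± SE. Of the 8 genes, 7 passed the filter on low counts in each family and Smad6 did not. A gene passes that filter with about 1 CPM in 3 libraries of its family. Id1 against Vehicle, and Id4 and Hey1 (a target from the lists below) against either control, were under this in every control library and passed through treated libraries only. A gene that passed in this way was kept for its high level in some treated libraries. Its calls against that control, or of A485 against SAHA or TSA, are therefore descriptions and support nothing. Among the siControl libraries, Bmp4 reached this level in siControl 3 alone (1.07 CPM), and no siRNA group passed for it against siControl. Other listed genes at or under the filter's level in control libraries, such as Figla and Bmp6 in Vehicle, are read in the same way. List counts and list medians hold such genes too. The calls of a higher level below are Id1 and Id4 for SAHA, TSA, siP300 and siComb, and Id4 for A485.

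With SAHA, 5 of the 7 genes tested passed, 2 higher and 3 lower, where 34.2% of all genes tested passed (20.2% higher, 14% lower). With A485, 6 passed, 1 higher and 5 lower, against 45.5% of all genes (21.4% higher, 24.2% lower). With TSA, 4 passed, 2 in each direction, against 58.1% of all genes (31.6% higher, 26.6% lower), so that the share among these genes was close to the background. In siP300 embryos 5 passed, 2 higher and 3 lower, against 35.4% of all genes (19.7% higher, 15.7% lower). In siComb embryos 5 passed, 2 higher and 3 lower, against 36.7% (19.6% higher, 17.1% lower). In siKat6a embryos none of the 7 passed, none at an unadjusted p under 0.05 and none with DESeq2, where 0% of all genes passed in edgeR, 1 gene in DESeq2 and 410 genes had an unadjusted p under 0.05. In siKat6b embryos none of the 7 passed in edgeR or DESeq2, where 0.0209% of all genes passed (4 genes, 0.0104% in each direction) and 2001 genes had an unadjusted p under 0.05, and Id2 and Id4 had an unadjusted p under 0.05. Groups that did not overlap the control were seen for 5 members with SAHA, against 54% of all genes tested, 6 with A485 (52.6%), 6 with TSA (68.5%), 5 in siP300 (48.2%), 0 in siKat6a (9.79%), 1 in siKat6b (17.4%) and 6 in siComb (52.2%). Each inhibitor was compared with the same 3 Vehicle libraries and each siRNA with the same 3 siControl libraries, so the comparisons within a family are not independent of each other. In bulk RNA, fewer cells expressing a gene and less RNA per cell cannot be told apart, and this holds for every result below.

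Id2 was the member with the highest level per kilobase of exon in control embryos and fell with each inhibitor, in siP300 and in siComb. The Vehicle libraries held 598, 476 and 494 CPM of Id2. The SAHA libraries held 87.4, 102 and 84.8 CPM, and the TSA libraries 145, 141 and 163 CPM. The A485 libraries held 8.67, 15.0 and 11.4 CPM. All 3 inhibitor groups lay below every Vehicle library, and A485 lay below every other library of the series. Id2 was 5.72-fold lower in mean CPM with SAHA (log2 -2.51 ± 0.19, adjusted p = 7.23e-07) and 3.49-fold lower with TSA (log2 -1.72 ± 0.19, adjusted p = 3.94e-06), at doses that differ. With A485 it was 44.6-fold lower (log2 -5.52 ± 0.22, adjusted p = 8.34e-10).

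Among the siRNA groups, siControl held 501, 427 and 438 CPM of Id2. The libraries labelled siP300 held 98.3, 144 and 120 CPM, and the siComb libraries 98.1, 52.1 and 110 CPM, all below every siControl library. Id2 fell by 2.23 ± 0.27 on the log2 scale in siP300 (adjusted p = 2.16e-05) and by 2.66 ± 0.28 in siComb (adjusted p = 2.89e-06). Without the library labelled siP300 3, the log2 fold change was -2.16. The siKat6b libraries, at 237, 374 and 276 CPM, also lay below siControl, but the difference did not pass (log2 -0.72, 95% interval -1.23 to -0.21, adjusted p = 0.317), and it was -0.36 without siKat6b 1 and 3, the 2 libraries of that group with high MERVL. In that comparison 17.4% of all genes had groups that did not overlap. The siKat6a libraries, at 367, 514 and 300 CPM, overlapped siControl. In the order of the 9 means, Vehicle (523 CPM), siControl (455), siKat6a (394) and siKat6b (296) overlapped each with the next. They were separated from TSA (150), siP300 (121), SAHA (91.4) and siComb (86.8), which again overlapped each with the next, and A485 (11.7 ± 3.19) stood apart at the bottom.

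Id3 differed from Id2 in its values with SAHA. Its Vehicle libraries held 143, 134 and 116 CPM and its SAHA libraries 137, 109 and 114 CPM, so the groups overlapped. The difference did not pass the test (log2 -0.12, 95% interval -0.91 to 0.68, adjusted p = 0.847). With TSA, Id3 stood at 66.4, 47.9 and 82.2 CPM, below every Vehicle library, but narrowly missed the threshold (log2 -0.91 ± 0.41, adjusted p = 0.0703). That call depended on the fit, since 5 of 14 alternatives put Id3 past the threshold with TSA, among them the fit of these 2 groups alone (log2 -0.83, adjusted p = 0.00791). With A485, Id3 fell to 9.36, 1.503 and 1.71 CPM (log2 -5.03 ± 0.50, adjusted p = 2.41e-06). The library A485 1 stood above the other A485 libraries, and without it the log2 fold change was -6.26. A485 also lay below SAHA directly (log2 -4.92 ± 0.50, adjusted p = 2.18e-06).

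In siP300, Id3 stood at 44.4, 48.5 and 24.5 CPM, against 128, 100 and 106 CPM in siControl. It fell by 1.803 ± 0.312 on the log2 scale (adjusted p = 0.000401), and by 1.51 without the library labelled siP300 3. In siComb it stood at 37.4, 46.6 and 53.8 CPM and fell by 1.53 ± 0.31 (adjusted p = 0.00111). The siKat6a (122 ± 21.8 CPM) and siKat6b (127 ± 50.3 CPM) groups overlapped siControl. In the order of means, Vehicle (131 CPM), siKat6b, siKat6a, SAHA (120) and siControl (111) formed one run of overlapping groups, TSA (65.5), siComb (45.9) and siP300 (39.1) a second, and A485 (4.19 ± 4.48) lay below both.

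Id1 and Id4 moved the other way in most of the same groups: both were low in control embryos and rose with SAHA, with TSA, in siP300 and in siComb. These are 4 of the groups in which MERVL lay above the control in every library, at the levels given above. Id1 had 10, 6 and 4 counts in the Vehicle libraries (0.943, 0.547 and 0.383 CPM). It had 24, 18 and 30 counts with SAHA (2.71, 1.71 and 3.20 CPM) and 254, 234 and 106 counts with TSA (33.6, 29.0 and 12.8 CPM). Both groups lay above every Vehicle library. As Id1 passed the filter through these libraries, its values against Vehicle are a description. The mean was 4.07-fold higher with SAHA (log2 2.02 ± 0.56, adjusted p = 0.0127) and 40.3-fold higher with TSA (log2 5.38 ± 0.56, adjusted p = 2.45e-06). The SAHA call was lost without SAHA 3 (adjusted p = 0.0514). With A485, Id1 had 4, 0 and 2 counts, below every Vehicle library, and did not pass (log2 -1.80 ± 0.76, adjusted p = 0.0677). Without A485 1 the log2 fold change was -2.57 (adjusted p = 0.0523). It passed narrowly with DESeq2 (adjusted p = 0.0496) and with no filter on low counts (adjusted p = 0.0494).

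In siP300, Id1 stood at 10.1, 15.7 and 23.4 CPM against 1.19, 4.65 and 1.61 CPM in siControl (log2 2.39 ± 0.66, adjusted p = 0.0103). The siComb libraries held 6.07, 22.1 and 12.9 CPM (log2 2.22 ± 0.65, adjusted p = 0.014). In both groups every library lay above every siControl library. Without the library labelled siP300 3, the log2 fold change in siP300 was 2.13 (adjusted p = 0.0364). The values depended on the control libraries. The log2 fold change was 3.18 in siP300 and 3.02 in siComb without siControl 2, and both calls were lost without siControl 1 (adjusted p = 0.0547 and 0.0691) or without siControl 3 (adjusted p = 0.0504 and 0.0634). Without siComb 2, the siComb call was lost too (log2 1.67, adjusted p = 0.068). Vehicle and siControl themselves did not overlap, at 0.624 ± 0.288 and 2.48 ± 1.89 CPM, a difference between families that was not tested. In the order of means, TSA (25.1 CPM), siP300 (16.4) and siComb (13.7) overlapped, followed by siKat6b (3.26), SAHA (2.54), siKat6a (2.53) and siControl, then Vehicle, then A485 (0.172).

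Id4 had no count in any Vehicle library, which allows up to 0.0937 CPM for 3 counts over the group. This floor takes each count as a separate event. If both reads of a pair were counted, it is too low and the bounds here are too high. Id4 had 14, 10 and 11 counts with SAHA (1.58, 0.951 and 1.17 CPM), at least 13.0-fold higher (adjusted p = 0.0117). With TSA it had 71, 42 and 59 counts (9.39, 5.21 and 7.11 CPM), at least 76.8-fold higher (adjusted p = 0.000344). With A485 all 16 counts came from A485 1 and the other libraries had none, so the groups overlapped. The test passed for A485 (adjusted p = 0.0448), but without A485 1 no count was left in either group. That call was also lost with halved counts, with the replicate block and without any one Vehicle library (adjusted p from 0.0582 to 0.0886).

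The siControl libraries had 0, 2 and 6 counts of Id4. The libraries labelled siP300 had 68, 35 and 228 counts (6.89, 3.82 and 19.0 CPM) and the siComb libraries 43, 80 and 41 counts (4.35, 8.43 and 4.21 CPM), all above siControl. Id4 passed the filter through these treated libraries, so the values are again a description. The log2 fold change was 4.86 ± 0.83 in siP300 (adjusted p = 0.00035) and 4.18 ± 0.82 in siComb (adjusted p = 0.000888). It was 4.10 without the library labelled siP300 3, and 6.15 and 5.46 without siControl 3. In siKat6b, at 17, 4 and 8 counts, Id4 overlapped siControl and did not pass (adjusted p = 0.449). The siKat6a libraries had 2 counts each.

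**Figure D1:**
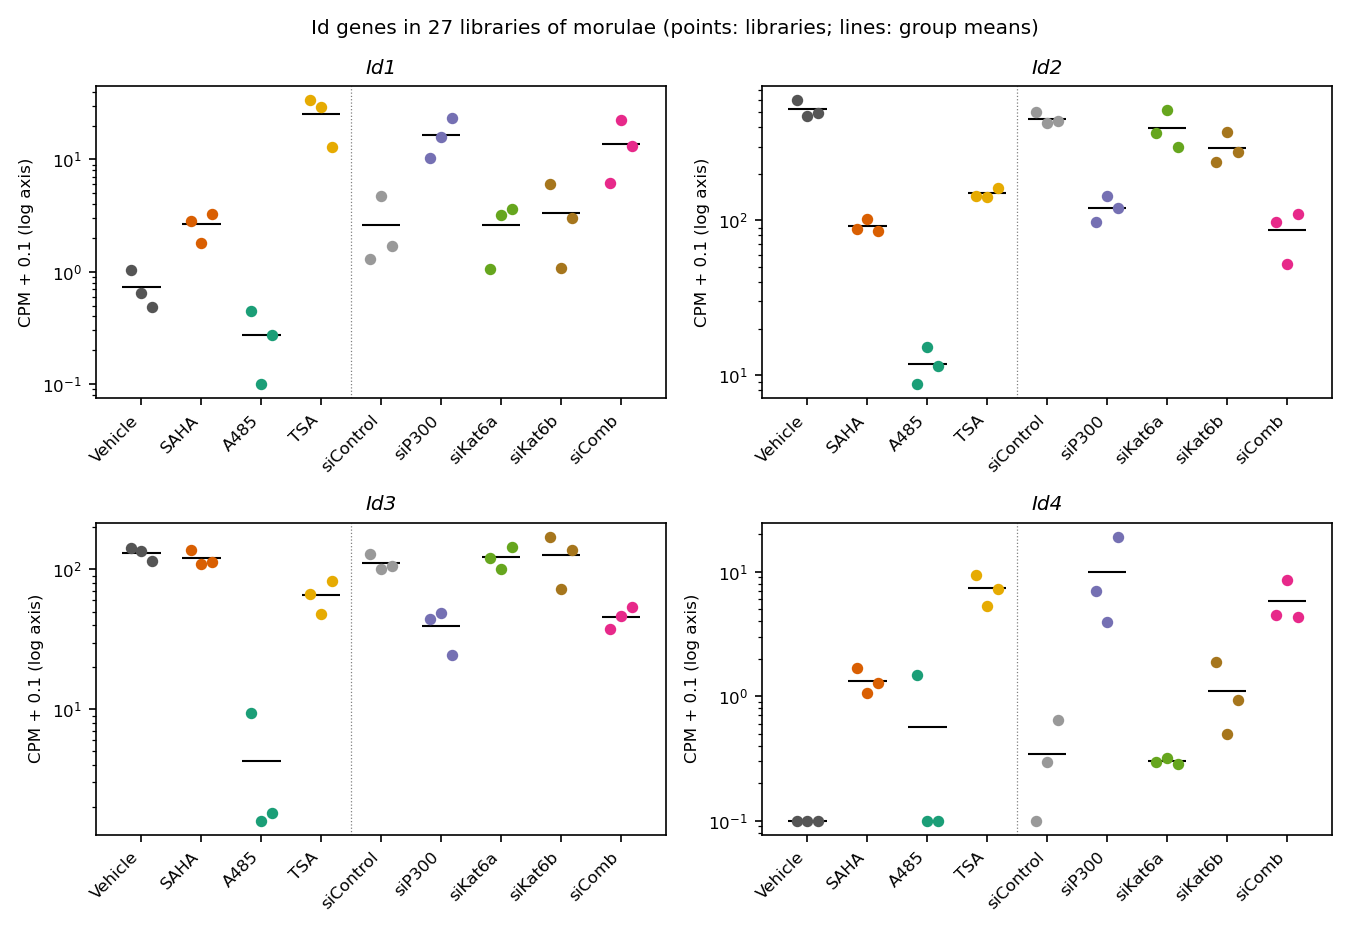
CPM + 0.1 on a log axis for Id1, Id2, Id3 and Id4, with 3 libraries per group as points and the group mean as a line, the inhibitor family left of the dotted line and the siRNA family right of it. Id2 and Id3 are lowest with A485, while Id1 and Id4 are highest with TSA, siP300 and siComb.

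The makeup of the Id family therefore differed between groups. Summed per kilobase of exon, the 4 genes reached 288 ± 32.9 CPM per kb in Vehicle and 251 ± 23.2 in siControl. The sum was 107 ± 7.11 with SAHA, 122 ± 9.10 with TSA, 7.41 ± 1.86 with A485, 88.1 ± 12.5 in siP300 and 74.5 ± 11.2 in siComb, each below every library of its control. In siKat6a it was 232 ± 33.6, overlapping siControl, and in siKat6b 196 ± 2.69, below it. Id1 supplied 0.182 ± 0.0634% of the sum in Vehicle and 0.883 ± 0.716% in siControl. Its share was 17.98 ± 7.98% with TSA, 16.0 ± 6.09% in siP300 and 16.1 ± 10.4% in siComb, against 2.05 ± 0.656% with SAHA. The level of Id2 per kilobase was 2.94 ± 0.294 times that of Id3 in Vehicle and 3.01 ± 0.124 times in siControl. It was 0.568 ± 0.109 times that of Id3 with SAHA, where Id3 was the more abundant of the pair in each library, and 1.74 ± 0.377 times with TSA. In A485 the ratio ran from 0.68 to 7.35 between libraries. These are descriptions of levels, with no test.

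**Figure D2:**
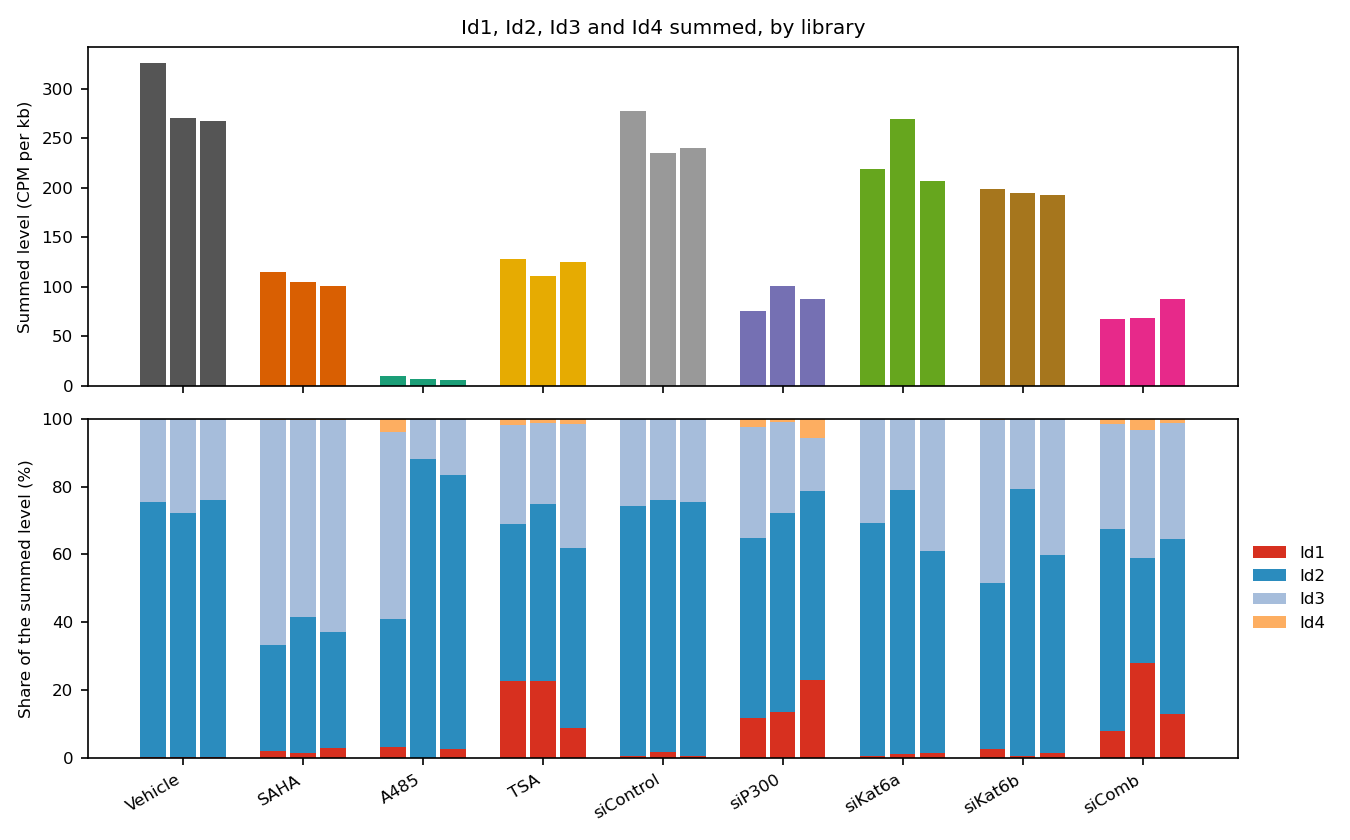
Top: level of Id1 to Id4 summed per kilobase of exon (CPM per kb), one bar per library. Bottom: share of each gene in that sum (%). Id2 makes up most of the sum in Vehicle and siControl, Id3 most of it with SAHA, and Id1 takes a visible share with TSA, siP300 and siComb.

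Smad7 (ENSMUSG00000025880, chromosome 18), which encodes an inhibitory SMAD that blocks receptors of the BMP and TGF-beta pathways, fell with each inhibitor. The Vehicle libraries held 7.54, 6.75 and 6.89 CPM. The SAHA libraries held 3.61, 2.47 and 2.13 CPM, the A485 libraries 4.34, 2.25 and 1.71 CPM, and the TSA libraries 2.12, 0.868 and 2.41 CPM. All 9 treated libraries lay below all Vehicle libraries. The log2 fold change was -1.36 ± 0.44 with SAHA (adjusted p = 0.0295), -1.42 ± 0.44 with A485 (adjusted p = 0.0175) and -1.88 ± 0.46 with TSA (adjusted p = 0.00322). The TSA call held under each alternative run. The SAHA call was lost under 6 of 14 alternatives, among them without any one Vehicle library, without SAHA 2 and without SAHA 3 (adjusted p up to 0.106), and the A485 call without A485 2 or A485 3 (adjusted p = 0.0551 and 0.0644).

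In the siRNA family, Smad7 stood at 14.2, 12.6 and 13.1 CPM in siControl. The siComb libraries, at 7.48, 8.64 and 8.83 CPM, lay below (log2 -0.94 ± 0.34, adjusted p = 0.0404). The libraries labelled siP300 held 5.27, 5.03 and 14.2 CPM, the last within the siControl range, and Smad7 passed (log2 -1.06 ± 0.34, adjusted p = 0.0237). Without the library labelled siP300 3 the log2 fold change was -1.62. Both calls depended on the fit: with library size alone in place of TMM the log2 fold changes were -0.70 (adjusted p = 0.155) in siP300 and -0.68 (adjusted p = 0.167) in siComb. The siComb call was lost under 10 of 15 alternatives, without each of the 6 libraries in turn among them, and the siP300 call under 7, among them without siControl 1, siControl 3, siP300 1 or siP300 2. The siKat6a (13.1 ± 3.63 CPM) and siKat6b (12.5 ± 3.84 CPM) groups overlapped siControl.

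Smad6, the inhibitory SMAD more closely tied to BMP receptors, was close to the limit of detection. It had between 0 and 22 counts per library, group means from 0.172 CPM (A485) to 1.16 CPM (TSA), and groups that overlapped each with the next. The main fit did not test it in either family. Some alternatives, such as DESeq2 and the fit with no filter, did include it, and their outcomes for Smad6 are not reported here.

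Bmp4, the one ligand among the 8 genes, was low, and a single library set the level of its control. The Vehicle libraries held 96, 12 and 12 counts (9.05, 1.09 and 1.15 CPM), so Vehicle 1 stood far above the others. The SAHA libraries held 4.29, 3.04 and 4.05 CPM, and the TSA libraries 7.67, 4.96 and 7.23 CPM. Both groups lay between the values of Vehicle 1 and those of Vehicle 2 and 3, and neither passed (log2 0.04 ± 0.68 with SAHA, adjusted p = 0.974, and 0.91 ± 0.68 with TSA, adjusted p = 0.266). Without Vehicle 1, Bmp4 was past the threshold in both, with log2 1.75 for SAHA (adjusted p = 0.0395) and 2.61 for TSA (adjusted p = 0.00236). With A485, Bmp4 had 0, 2 and 2 counts and fell (log2 -4.88 ± 0.96, adjusted p = 0.000896). Without Vehicle 1 the log2 fold change was -3.17, and without A485 1 it was -4.21. In siP300, at 1.42, 2.84 and 4.67 CPM, Bmp4 lay above all siControl libraries (0.395, 0.581 and 1.07 CPM) without passing (log2 1.74 ± 1.05, adjusted p = 0.205), and the log2 value was 1.36 without the library labelled siP300 3. In that comparison 48.2% of all genes had groups that did not overlap. In siComb, at 2.43, 3.37 and 0.822 CPM, it overlapped siControl (log2 1.40 ± 1.05, adjusted p = 0.314).

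Msx2, the homeobox target, fell with SAHA and with A485. The Vehicle libraries held 6.98, 3.65 and 8.61 CPM and the SAHA libraries 0.226, 0.76 and 0.426 CPM, with no overlap. The mean was 13.6-fold lower with SAHA (log2 -3.71 ± 0.63, adjusted p = 0.000474), and this call held under each alternative run. With A485 it stood at 3.29, 0.939 and 2.39 CPM (log2 -1.59 ± 0.54, adjusted p = 0.026), a call lost without Vehicle 1, Vehicle 3 or A485 2 (adjusted p = 0.0628, 0.105 and 0.085). With TSA it stood at 3.44, 1.49 and 2.89 CPM, below every Vehicle library, and did not pass (log2 -1.21 ± 0.54, adjusted p = 0.0665). It passed without Vehicle 2 (adjusted p = 0.0416) and in one fit of all 27 libraries (adjusted p = 0.0253).

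In siP300, Msx2 stood at 4.66, 5.03 and 5.17 CPM, within the siControl range of 2.51 to 5.34 CPM (log2 0.03, 95% interval -0.77 to 0.83, or 0.065 without the library labelled siP300 3). In siComb it stood at 6.88, 6.11 and 12.7 CPM, above every siControl library, and did not pass (log2 0.88 ± 0.41, adjusted p = 0.097). With library size alone it did (log2 1.13, adjusted p = 0.0394). SAHA (0.471 ± 0.27 CPM) had the lowest mean of the 9 groups and did not overlap the next, A485 (2.21 ± 1.19 CPM). The groups above it, from A485 and TSA (2.61) to Vehicle (6.41) and siComb (8.58), overlapped each with the next.

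**Figure D3:**
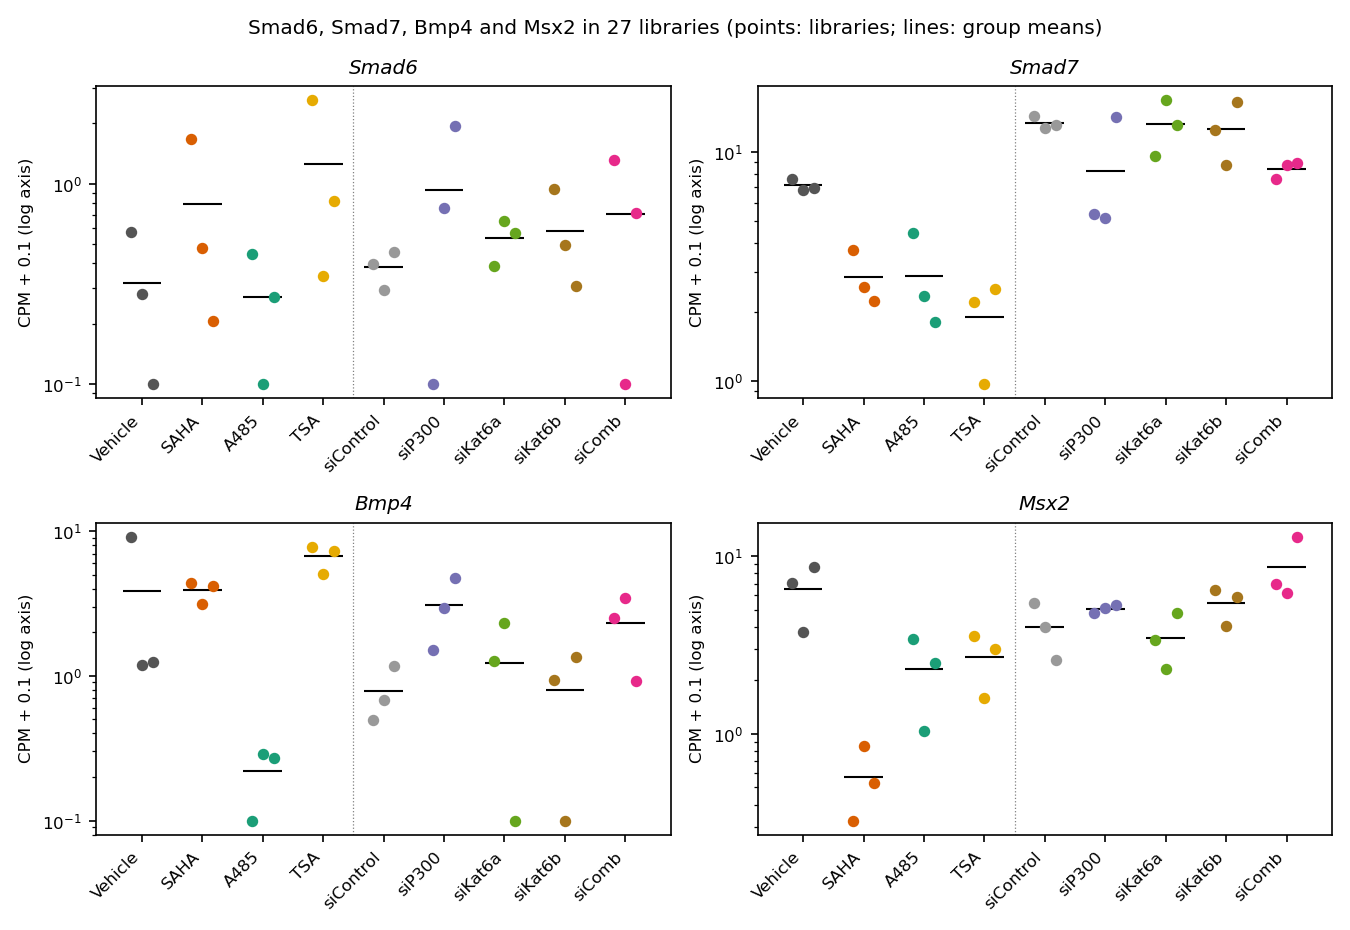
CPM + 0.1 on a log axis for Smad6, Smad7, Bmp4 and Msx2, with 3 libraries per group as points and the group mean as a line. Smad7 is below Vehicle with each inhibitor, Msx2 is lowest with SAHA, Bmp4 is lowest with A485 and one Vehicle library stands above the other 2.

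The fits allowed direct tests between treated groups. A485 (10 uM) lay below SAHA (500 nM) for Id1 (log2 -3.82 ± 0.67, adjusted p = 0.000263), Id2 (log2 -3.01 ± 0.20, adjusted p = 5.91e-08), Id3 and Bmp4 (log2 -4.91 ± 0.96, adjusted p = 0.000664). Msx2 was higher with A485 than with SAHA (log2 2.12 ± 0.63, adjusted p = 0.0105). For Id4 and Smad7 the difference did not pass (adjusted p = 0.231 and 0.921). Without A485 1 the log2 differences from SAHA were -4.60 for Id1, -6.16 for Id3 and -4.27 for Bmp4. In all, 5 of the 7 genes passed between A485 and SAHA, where 54.4% of all genes did (22.5% higher, 31.9% lower). The same 5 had groups that did not overlap, against 60.2% of all genes. Id1 is among the 5, and its call is a description, since it passed the filter through treated libraries. Between A485 and TSA (50 nM), 5 passed, with groups that did not overlap for 5 (66% of all genes), all lower with A485, where 63.5% of all genes did (27.4% higher, 36.1% lower). They were Id1 (log2 -7.19 ± 0.65, adjusted p = 4.61e-07), Id2 (log2 -3.81 ± 0.21), Id3 (log2 -4.12 ± 0.48), Id4 (log2 -4.09 ± 0.99) and Bmp4 (log2 -5.79 ± 0.96). The calls of Id1 and Id4 are descriptions here for the same reason. Without A485 1 the values were -7.93 for Id1, -5.32 for Id3 and -5.09 for Bmp4, and Id4 was at 0 in the A485 libraries that were left.

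SAHA and TSA are both hydroxamates. Their doses differed, so their values are given side by side and were not compared. Between siComb and siP300 none of the 7 genes passed in edgeR or DESeq2, Msx2 alone had an unadjusted p under 0.05 (log2 0.85 ± 0.40, adjusted p = 0.367), and 0.798% of all genes passed (0.516% higher, 0.282% lower), with 2598 at an unadjusted p under 0.05. Msx2 was also the one member whose siComb and siP300 libraries did not overlap, against 15.4% of all genes.

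**Figure D4:**
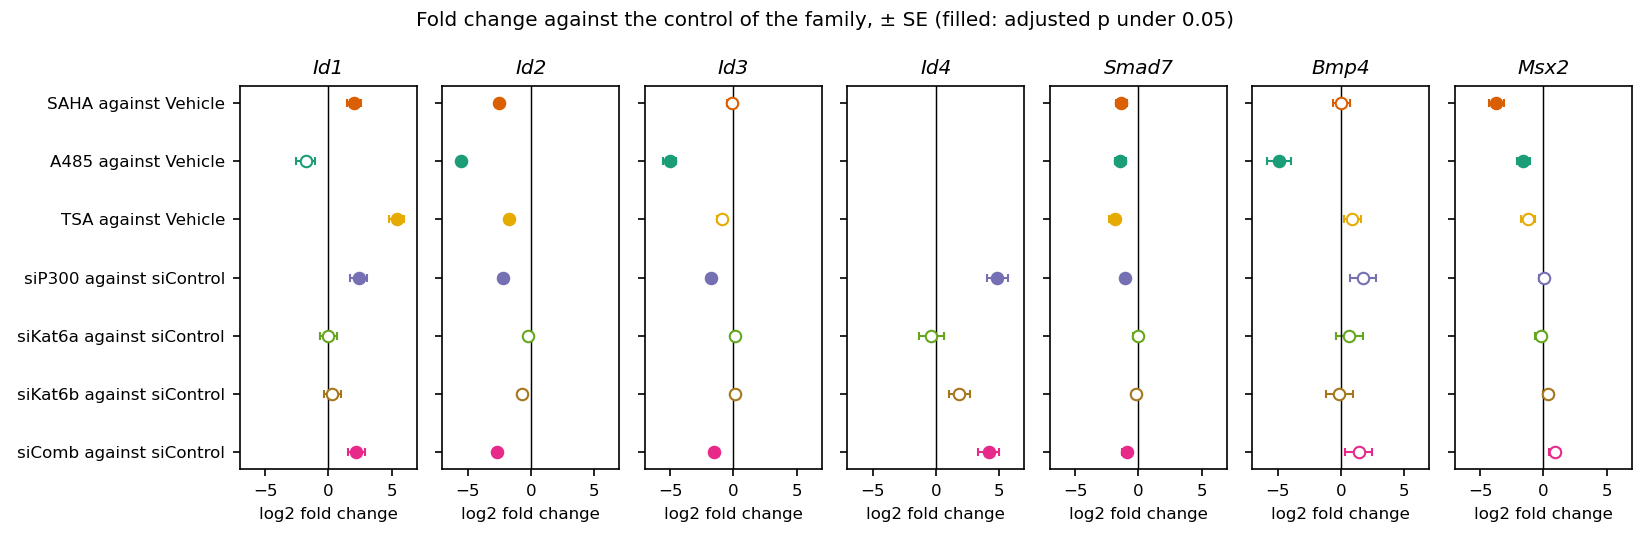
Log2 fold change of 7 genes against the control of their family, with the standard error as a bar, for 3 inhibitors and 4 siRNAs. Filled points have an adjusted p under 0.05, and Id4 against Vehicle is not drawn because Vehicle was at 0. Id2 is left of 0 with filled points for SAHA, A485, TSA, siP300 and siComb, Id1 is right of 0 with filled points for SAHA, TSA, siP300 and siComb, and no point of siKat6a or siKat6b is filled.

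The rest of the pathway was read from lists of named genes. Of 14 other BMP ligands, 5 were tested for the inhibitors and 9 for the siRNAs. Bmp6 rose with SAHA (0.957 to 3.44 CPM, log2 1.84 ± 0.54), with TSA (to 11.7 CPM, log2 3.68 ± 0.54), in siP300 (3.78 to 14.0 CPM, log2 1.56 ± 0.33) and in siComb (to 12.5 CPM, log2 1.46 ± 0.33). Its mean in Vehicle was close to the filter's level, so its values against Vehicle are a description. In all, 2 ligands rose with SAHA, 3 with TSA, 3 in siP300 and 1 in siComb, and none fell in these groups. Of all genes tested, 20.2%, 31.6%, 19.7% and 19.6% rose in those comparisons. With A485 none rose and Bmp8b fell (106 to 66.6 CPM, log2 -0.71 ± 0.14, adjusted p = 0.00072), where 21.4% of all genes rose and 24.2% fell.

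Of 9 receptors and coreceptors, 7 and 8 were tested in the inhibitor and siRNA families. Bmpr1a, a type I receptor, stood at 41.4 CPM in Vehicle. It rose with A485 (79.9 CPM, log2 0.91 ± 0.23) and fell with SAHA (23.3 CPM, log2 -0.82 ± 0.24) and TSA (22.8 CPM, log2 -0.78 ± 0.24). Over the list, 1 rose and 1 fell with SAHA, 2 rose with A485, and 2 rose and 1 fell with TSA. In siP300 5 rose and in siComb 4 rose, and none fell, where 19.7% and 19.6% of all genes rose. Bmpr2, the BMP type II receptor, was among them, at 55.4 and 55.0 CPM against 25.8 CPM in siControl (log2 0.77 ± 0.23 and 0.82 ± 0.23), and it rose with TSA (19.8 to 43.3 CPM, log2 1.21 ± 0.25). Over all genes tested, the share passing in either direction was 34.2% with SAHA, 45.5% with A485 and 58.1% with TSA. It was 35.4% in siP300 and 36.7% in siComb. These shares stand beside the receptor counts and the list that follows. Of the 6 SMAD transducers and cofactors, none passed with SAHA or TSA. With A485, Smad5 (8.05 to 22.3 CPM, log2 1.43 ± 0.32) and Smad4 (26.1 to 46.8 CPM, log2 0.78 ± 0.24) rose. Zfp423, a zinc finger partner of SMADs, rose in siP300 (log2 1.63 ± 0.48) and siComb (log2 1.31 ± 0.48), and Smad9 fell in siComb (log2 -1.91 ± 0.67).

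Of 20 antagonists and intracellular inhibitors, 12 and 13 were tested. With SAHA 5 rose and 3 fell, with A485 5 and 3, with TSA 4 and 3, in siP300 5 and 1, and in siComb 6 and 1. Of all genes tested, 34.2%, 45.5%, 58.1%, 35.4% and 36.7% passed in those comparisons in either direction, which also stand beside the lists that follow. Tob2, which encodes an antiproliferative protein that binds BMP-activated SMADs, stood at 2.43 CPM in Vehicle. It rose with SAHA (12.2 CPM, log2 2.34 ± 0.36), A485 (15.4 CPM, log2 2.60 ± 0.36), TSA (26.1 CPM, log2 3.51 ± 0.37) and, from 2.10 CPM in siControl, in siP300 (21.0 CPM, log2 2.99 ± 0.42) and siComb (17.5 CPM, log2 2.79 ± 0.42). Twsg1, which encodes a secreted BMP-binding protein, rose with SAHA (3.39 to 7.29 CPM, log2 1.11 ± 0.31), A485 (31.2 CPM, log2 3.15 ± 0.31) and TSA (19.6 CPM, log2 2.61 ± 0.31), in siP300 (3.97 to 27.7 CPM, log2 2.46 ± 0.35) and in siComb (to 33.1 CPM, log2 2.79 ± 0.35). Smurf1, a ubiquitin ligase for SMAD1 and SMAD5, fell with SAHA (13.8 to 3.89 CPM, log2 -1.81 ± 0.40) and TSA (2.83 CPM, log2 -2.20 ± 0.41).

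The 13 other genes listed as BMP targets moved in both directions, as the 8 genes did, and 12 were tested in each family. With SAHA 4 rose and 4 fell (median log2 0.43, against 0.06 over all genes tested). With A485 2 rose and 5 fell (median -0.47, against -0.06), and with TSA 5 rose and 4 fell (median 1.30, against 0.08). In siP300 8 rose and 3 fell (median 2.16, against 0.12), and in siComb 7 rose and 4 fell (median 2.05, against 0.09). None passed in siKat6a or siKat6b. The counts and medians of this list hold genes that passed the filter through treated libraries, such as Hey1. They are descriptions and support no shift of the list. Gata3, a trophectoderm transcription factor, fell with SAHA (315 to 75.0 CPM, log2 -2.06 ± 0.22), A485 (33.0 CPM, log2 -3.31 ± 0.24) and TSA (5.25 CPM, log2 -5.81 ± 0.28), in siP300 (234 to 92.8 CPM, log2 -1.71 ± 0.35) and in siComb (72.8 CPM, log2 -1.95 ± 0.36). Cdx2, a second trophectoderm factor, fell with SAHA (12.6 to 2.16 CPM), TSA (0.169 CPM) and A485. With A485 it was at 0 in all libraries and at least 143-fold lower, taking each count as a separate event. It also fell in siP300 (28.1 to 4.57 CPM) and in siComb (3.31 CPM). Runx2, known as an osteoblast factor, rose with SAHA (8.98 to 50.9 CPM, log2 2.52 ± 0.44) and TSA (141 CPM, log2 4.05 ± 0.47), in siP300 (10.1 to 33.4 CPM, log2 1.41 ± 0.39) and in siComb (26.98 CPM, log2 1.16 ± 0.39). Hey1, a helix-loop-helix repressor under the filter's level in all control libraries, rose with SAHA (0.435 to 6.77 CPM, log2 3.92 ± 0.90) and TSA (19.2 CPM, log2 5.51 ± 0.91), in siP300 (0.322 to 4.31 CPM, log2 3.38 ± 0.77) and in siComb (5.83 CPM, log2 3.88 ± 0.78).

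Of the 8 E proteins and other partners of Id proteins, 7 were tested in each family. With SAHA 1 rose and 1 fell, with A485 1 and 2, and with TSA 1 and 1, while 1 fell in siP300 and 2 in siComb. Tcf12, an E protein, rose with A485 (38.7 to 132 CPM, log2 1.71 ± 0.34, adjusted p = 0.000932), and Tcf4, another, rose with SAHA (3.96 to 9.16 CPM, log2 1.21 ± 0.39) and fell in siComb (9.91 to 5.53 CPM, log2 -1.10 ± 0.42). Figla, an oocyte transcription factor, rose with TSA (0.621 to 2.61 CPM, log2 2.12 ± 0.85, adjusted p = 0.0441). Myod1, a myogenic factor that Id proteins restrain, fell with SAHA, A485 and TSA from 7.53 CPM to 0.677, 0.0626 and 0.573 CPM. Tcf15 fell with A485 (log2 -2.69 ± 0.54), in siP300 (log2 -1.33 ± 0.38) and in siComb (log2 -1.23 ± 0.38). Of 10 genes of the TGF-beta and activin branch, 7 were tested in the inhibitor family, where 1 fell with SAHA, 1 rose and 2 fell with A485, and 2 rose and 3 fell with TSA. In siP300 2 of 9 rose and 1 fell, and in siComb 1 rose. Smad3, which transduces that branch, fell with SAHA (log2 -1.29 ± 0.43), A485 (log2 -1.78 ± 0.44) and TSA (7.40 to 0.583 CPM, log2 -3.54 ± 0.51).

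**Figure D5:**
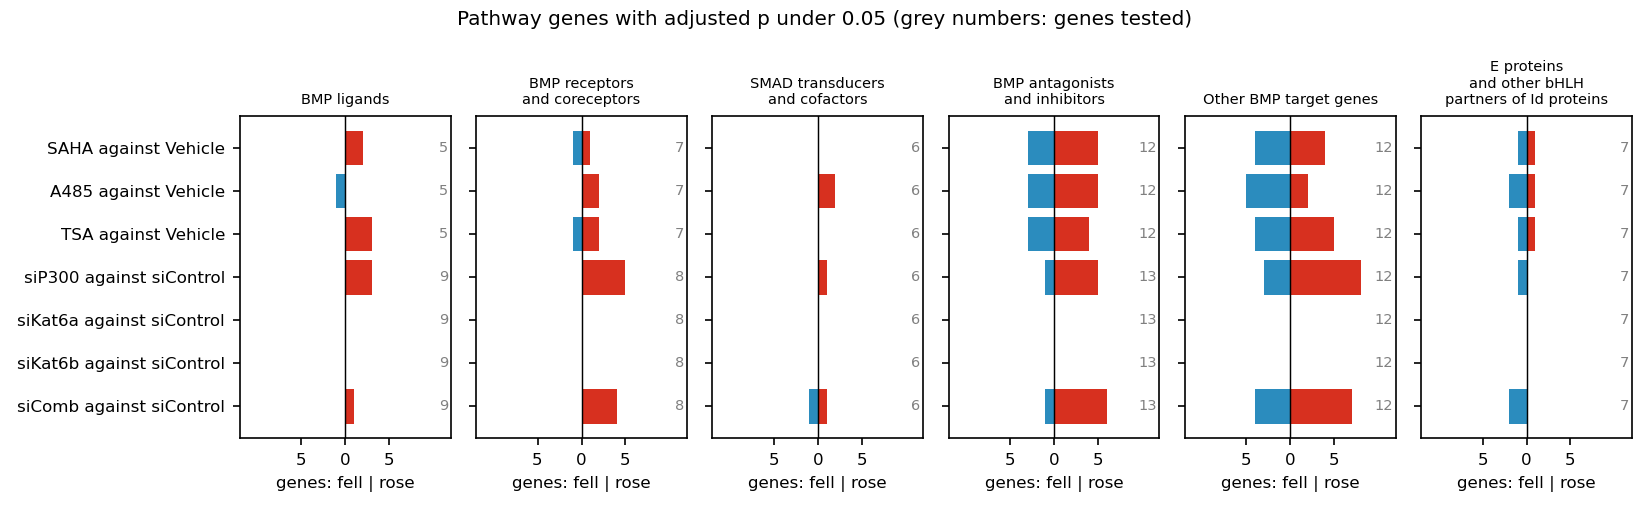
Number of genes of each list that fell (blue, left) or rose (red, right) with an adjusted p under 0.05 in each comparison, with the number tested in grey. Other BMP targets have bars on both sides with the inhibitors, siP300 and siComb, and no list has a bar for siKat6a or siKat6b.

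Among 8260 genes with a mean of at least 10 CPM, those whose group means followed Id2 most closely over the 9 groups (Pearson r of log2(CPM + 1), a description over 9 points that share controls and depth) included Aopep (r = 0.974) and Etv5 (r = 0.97). Etv5 encodes an ETS factor and stood at 26.7 CPM in Vehicle, 9.43 with SAHA, 7.46 with TSA and 0.695 with A485. For Id3 they were Ak4 (r = 0.994), Fkbp11 (r = 0.979) and Ppat (r = 0.979). Ak4, an adenylate kinase of the mitochondrial matrix, stood at 411 CPM in Vehicle, 368 with SAHA, 233 with TSA and 6.65 with A485. Among the 8 genes, Id2 with Id3 (r = 0.901) and Id1 with Id4 (r = 0.919) followed each other closely, and Id1 with Id2 did not (r = 0.0653). Smad6, though close to the limit of detection, followed Id1 (r = 0.9005) and Id4 (r = 0.847) about as closely, so this was not particular to Id genes.

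Other measures moved with the same groups, and their part in these results was not tested. Mitochondrially encoded genes took 0.997 to 1.198% of counts in Vehicle, 1.61 to 2.16% with SAHA, 2.36 to 2.62% with A485 and 2.51 to 3.57% with TSA. They took 1.94 to 2.45% in siControl, 4.94 to 6.99% in siP300 and 4.86 to 5.41% in siComb. Genes with at least 10 counts numbered 14643 to 14757 in Vehicle, 14036 to 14575 with A485 and 16011 to 16504 with SAHA or TSA. In siControl they numbered 15502 to 15845, and in siP300 17495 to 19122. The summed level of the 8 morula markers was 904 to 1013 CPM in Vehicle, 439 to 599 with SAHA, 103 to 141 with A485 and 194 to 256 with TSA. It was 972 to 1216 CPM in siControl, 349 to 691 in siP300 and 450 to 733 in siComb (exact permutation p = 0.1, two-sided, for each of these 5 groups, the smallest that 3 against 3 libraries allow). In siKat6a (904 to 1187 CPM) and siKat6b (935 to 1082 CPM) it overlapped siControl.

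Markers of cells that could accompany embryos were also read, and their part was not tested either. The 10 cumulus and granulosa markers summed to 186 to 193 CPM in Vehicle, 81.8 to 104 with SAHA, 11.4 to 20.8 with A485 and 37.1 to 41.7 with TSA. Nr5a2, which the early embryo itself expresses, held 167 CPM of the Vehicle sum, and Amh, Has2 and Ptx3 were at 0 in Vehicle. In siP300 (144 to 237 CPM) and siComb (165 to 227 CPM) the sum overlapped siControl (170 to 233 CPM). The 9 blood and endothelial markers summed to 31.7 to 41.1 CPM in Vehicle, 22.1 to 29.0 with SAHA, 4.86 to 6.85 with A485 and 35.0 to 54.1 with TSA, and to 19.1 to 23.5 CPM in siControl, 58.2 to 145 in siP300, 55.4 to 91.5 in siComb, 27.1 to 29.4 in siKat6a and 29.8 to 63.0 in siKat6b, all above siControl. Hba-a1 held 81.7 CPM of the mean in siP300, 52.3 in siComb and 25.8 with TSA, against 0.83 in siControl and 0.127 in Vehicle, while Hbb-bs was at 0 in every group. The 10 oviduct and stromal markers summed to 12.5 to 21.8 CPM in Vehicle, 5.51 to 7.46 with SAHA, 1.13 to 5.63 with A485 and 10.98 to 12.8 with TSA, with Col1a2 at 0 in 8 of 9 groups. In siControl they summed to 14.3 to 24.99 CPM, and the 4 siRNA groups, at 11.15 to 28.2 CPM, overlapped it. The 8 markers retained from the oocyte summed to 3.02 to 6.31 CPM in Vehicle, 5.89 to 9.26 with SAHA, 2.25 to 7.63 with A485 and 7.94 to 17.2 with TSA, which lay above Vehicle. They stood at 8.60 to 12.0005 CPM in siControl, 9.03 to 14.0 in siKat6a, 8.67 to 16.97 in siKat6b, 16.3 to 22.5 in siP300 and 18.5 to 25.3 in siComb, the last 2 above siControl.

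The Id calls were also read without the 4 siRNA libraries highest in MERVL, and apart from that without Vehicle 3. In SAHA and TSA MERVL was high in each library, so no such reading was possible there. Without siP300 2, siKat6b 1, siKat6b 3 and siComb 2, the log2 fold changes in siP300 were 2.36 for Id1, -2.45 for Id2, -2.06 for Id3 and 5.22 for Id4, and in siComb 1.68, -2.40, -1.55 and 3.76, each past the threshold. Smad7 in siP300 was not (log2 -0.85, adjusted p = 0.0747). The libraries left in siP300 (151 and 158 CPM) and siComb (71.6 and 61.8 CPM) still held more MERVL than siControl (21.2 to 32.8 CPM). Among them, siP300 3, siComb 1 and siComb 3 held more Ep300 than any siControl library. This reading therefore does not separate the calls from MERVL, whose part was not tested. Without Vehicle 3, Id2 changed by -2.51 with SAHA, -5.57 with A485 and -1.72 with TSA, and Id1 by 1.803 with SAHA and 5.17 with TSA, all past the threshold.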

How the data were processed

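The authors deposited whole-number read counts per gene, which are raw counts and not normalized. Per the submitters' processing notes, the tools include STAR 2.7.11a and featureCounts of Subread 2.0.6, and the builds named are mm10 and GRCh38, with no role given. For strand and pairing, the setting is not given in the sources used here, and 83.3 to 85.9% of nonzero counts per library were even, so fits with halved counts were also run. CPM was computed on the sum of gene rows, leaving out 2 MERVL rows. The tests used edgeR 4.0.16 in R 4.3.3 (TMM, filterByExpr with a minimum count of 10, quasi-likelihood test, 1 fit per family, group as the only term), with Benjamini-Hochberg adjustment over all genes tested and a threshold of 0.05. SE is the log2 fold change divided by the square root of F, and an interval is 1.96 SE to each side. TMM scales siP300 and siComb libraries differently from siControl, so folds of mean CPM and fitted folds differ. DESeq2 1.42.0, other scalings, no filter, other sets of libraries, a replicate block and leaving out each library were alternatives. Members and gene lists were chosen with earlier results of these data known. The text names the 8 members, up to 3 genes per list and comparison by adjusted p (given in every comparison with a control where they passed), and the 3 genes most like Id2 and Id3, of which 1 for Id2 is not reported here. Promoters came from RefSeq (GRCm38.p6), and gene models from GENCODE vM21. The fit was tested on simulated data. Replicates differed by more than counting noise in all 27 pairs (chi-square per degree of freedom from 8.354 to 48.89). Intervals come from the same fit as the p-values and so rest on the spread between these pools, while floors cover counting error only.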

Additional observations from a re-analysis of the deposited data

How the results depend on the processing

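Of 35 member results past the threshold, 26 stayed past it under every alternative run, 9 were lost under at least 1 and 0 reversed. The 9 are named beside their values above, and the cause was not tested. With 1 library left out in turn, the number of members past the threshold ran from 3 to 5 with SAHA, 4 to 5 with A485, 4 to 5 with TSA, 3 to 5 in siP300, 3 to 4 in siComb, 0 to 0 in siKat6a and siKat6b, 5 to 6 between A485 and SAHA, 5 to 5 between A485 and TSA, and 0 to 0 between siComb and siP300. With no filter on low counts, 1 member (Id2, adjusted p = 0.0144) passed in siKat6b. The sign was read for 47 member results, without members that overlapped and did not pass in siKat6a, siKat6b or the direct tests between treated groups. Among these it turned only for 2 values near 0 that did not pass. For Bmp4 with SAHA it was -0.000585 in the fit of all 27 libraries and ran from -0.40 to 1.75 with 1 library left out. For Msx2 in siP300 it was -0.043 without the 4 siRNA libraries highest in MERVL and ran from -0.20 to 0.30.

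Same-numbered libraries correlated from -0.0975 to 0.358 over 30 pairs, so the numbers were not taken to pair libraries. With the replicate block, 5 members passed with SAHA, 5 with A485 (Id4 lost), 5 with TSA (Id3 gained, adjusted p = 0.0495), 5 in siP300 and 5 in siComb, and it changed no other call on a member. Over all genes, 4 passed in siKat6b, against 253 with DESeq2, 755 with no filter, 59 with the 2 groups alone, 29 in the fit of all 27 libraries, 2 with size factors, with the block or with halved counts, and 1 to 160 with 1 library left out. In siKat6a 15 passed with no filter. Between siComb and siP300 153 passed, against 657 with DESeq2, 733 with no filter, 99 with library size alone, 48 with the block, 0 with the 2 groups alone and 26 to 165 with 1 library left out. Library size alone moved the median log2 fold change of all genes by 0.323 in siP300, 0.262 in siComb, 0.101 in siKat6b and 0.136 between A485 and TSA, and size factors moved it by 0.142 with TSA and -0.115 between A485 and TSA. The share of calls that were higher went from 55.8 to 76.9% in siP300, 53.5 to 70.3% in siComb, 50 to 66.7% in siKat6b and 64.7 to 47.5% between siComb and siP300. With TMM scaling, 3 of 72 levels moved by more than 1 SD. Id1, Id4, Smad6 and Bmp4 rested on few counts in control libraries, which limits their folds.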
